A study of Mus musculus with 22 samples.

Results

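Polycomb repressive complex 2 (PRC2) was followed through 8 of its genes in mouse primordial germ cells (PGCs), the cells of the embryo that give rise to eggs and sperm. They were the catalytic subunit genes Ezh2 and Ezh1, the core partner genes Eed and Suz12, and the accessory protein genes Phf19, Mtf2, Jarid2 and Aebp2. The genes were taken by symbol from a list of PRC2 components, by a rule that did not use their values. The list was chosen with earlier results of these data known. All 8 were present among the 37991 genes counted in the Tet1 cross and among the 37620 genes counted in a second cross. PGCs were sorted from embryos of Tet1-heterozygous parents that both carried GOF18ΔPE-EGFP, a green fluorescent Pou5f1 transgene that marks germ cells. Embryos labelled as Tet1 knockouts (Tet1-KO) were compared with their Tet1-WT counterparts, both with the reporter background. They were compared at E10.5 with the sexes together, and as males and females at E12.5 and at E14.5. This gave 10 groups of 2 libraries, each library made from pooled RNA of 2 to 6 embryos, or 1000 to 8000 cells. A cross of MF1 females with GOF18ΔPE-EGFP males gave 2 wild type libraries at E10.5, from 600 to 1000 cells each and with another RNA kit. All cDNA was amplified from small amounts of RNA with the SMARTer kit.

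As background, PRC2 places methyl groups on lysine 27 of histone H3, a mark of silenced developmental genes. Ezh2 and Ezh1 carry the methyltransferase domain, and Ezh2 is known as the form of dividing cells and Ezh1 as the form that persists in resting cells. Eed binds the finished mark and Suz12 holds the complex together. Phf19 and Mtf2 are Polycomb-like proteins that bring the complex to CpG-rich DNA, while Jarid2 and Aebp2 belong to an alternative assembly. In PGCs the H3K27me3 mark is known to spread as DNA methylation is lost, and Tet1 encodes an enzyme that oxidises methylated cytosine.

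The start regions of 4 PRC2 genes are printed because they differ in matches to E2F motifs, short sequences bound by regulators of the cell cycle. In human cells EZH2 and EED are known targets of E2F. Each window runs from 250 bases before the RefSeq start to 30 bases after it, a length of 280 bases, on GRCm38.p6, a later build than the one used for the counts, and is written 5′ to 3′ in the direction of the gene. Capitals mark a match to TTTCCCGC, TTTGGCGC, TTTGGCGG or TTTCGCGC, searched on both strands. The windows are Ezh2 at chr6:47595001-47595280 (minus strand), Suz12 at chr11:79992856-79993135 (plus strand), Phf19 at chr2:34913947-34914226 (minus strand) and Ezh1 at chr11:101226434-101226713 (minus strand).
Ezh2: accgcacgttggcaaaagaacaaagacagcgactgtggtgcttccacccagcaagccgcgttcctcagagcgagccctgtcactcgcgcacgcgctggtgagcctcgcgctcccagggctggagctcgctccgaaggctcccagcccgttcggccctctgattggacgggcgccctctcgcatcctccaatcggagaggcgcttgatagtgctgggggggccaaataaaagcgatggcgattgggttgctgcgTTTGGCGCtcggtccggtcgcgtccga
Suz12: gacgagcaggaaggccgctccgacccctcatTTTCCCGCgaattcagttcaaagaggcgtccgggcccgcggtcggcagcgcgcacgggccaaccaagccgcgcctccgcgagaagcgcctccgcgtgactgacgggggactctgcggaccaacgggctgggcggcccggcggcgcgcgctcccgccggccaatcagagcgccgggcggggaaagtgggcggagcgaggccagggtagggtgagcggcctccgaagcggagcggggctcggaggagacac
Phf19: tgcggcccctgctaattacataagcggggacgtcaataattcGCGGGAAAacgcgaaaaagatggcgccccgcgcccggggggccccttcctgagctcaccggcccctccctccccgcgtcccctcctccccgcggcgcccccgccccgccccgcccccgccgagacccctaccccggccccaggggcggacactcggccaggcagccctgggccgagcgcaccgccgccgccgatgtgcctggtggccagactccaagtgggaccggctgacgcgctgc
Ezh1: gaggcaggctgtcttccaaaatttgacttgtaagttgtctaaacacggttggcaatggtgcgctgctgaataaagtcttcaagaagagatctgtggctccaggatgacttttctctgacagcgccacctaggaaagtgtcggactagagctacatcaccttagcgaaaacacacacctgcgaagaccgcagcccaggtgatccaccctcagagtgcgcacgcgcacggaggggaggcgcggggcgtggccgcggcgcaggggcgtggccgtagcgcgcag
The match in Ezh2 began at base 3 counted from the start, that in Suz12 at base -219, and that in Phf19 at base -208 with the motif on the opposite strand. No match overlapped another. Ezh1 and the windows of Eed, Jarid2, Mtf2 and Aebp2 held none of these letters, and Jarid2, Mtf2 and Aebp2 had more than 1 start, so that 12 windows were searched and 3 held a match. Of 32851 start windows of all genes, 2.2% held a match to any of the 4 motifs and 1.01% to TTTCCCGC. CpG occurred at 1.03 times its random rate in the Ezh2 window, 1.09 in Suz12, 0.907 in Phf19 and 0.893 in Ezh1, against a median of 0.382 over all windows. Of the 12 windows 3 lay below that median, at 0.135 for the second start of Mtf2 and at 0.129 and 0.17 for the first and the third of Aebp2. A match is a string of letters and was not tested as a binding site.

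Total counts per library ranged from 9616436 to 25899505 in the Tet1 cross and were 59415040 and 66924911 in the MF1 cross. Levels are CPM, counts scaled to a common library total of 1000000. The lowest count of any of the 8 genes in a library of the Tet1 cross was 208, for Aebp2. Tet1 itself was lower in both Tet1-KO libraries than in both Tet1-WT libraries in each sex at E12.5 and E14.5, at 79.3 and 84.4 CPM against 178 and 309 CPM in E12.5 males, and at 53.1 and 68.9 CPM against 179 and 226 CPM in E12.5 females. At E14.5 it was at 99.5 and 79.9 CPM against 218 and 155 CPM in males, and at 21 and 25.8 CPM against 35.2 and 49.2 CPM in females. Tet1 reads thus remained in all Tet1-KO libraries. By edgeR Tet1 was called lower in E12.5 females only (log2 -1.73, adjusted p = 0.0303). It gave -1.57 in E12.5 males (0.0553), -1.05 in E14.5 males (0.292), -0.85 in E14.5 females (0.204) and -0.52 at E10.5 by label (0.388). Averaged over these 5 groups it was called lower (log2 -1.15, adjusted p = 0.00038). At E10.5 it stood at 44.5 and 102 CPM in libraries labelled Tet1-KO and at 134 and 76.8 CPM in those labelled Tet1-WT, so the labels overlap there and every direction that uses E10.5 rests on them. The E10.5 pools were not sexed, and the Y-linked gene Uty varied within both labels. It was at 34.6 ± 31.3 CPM in libraries labelled Tet1-KO and 31.7 ± 24.7 CPM in those labelled Tet1-WT (SD, n = 2). In E12.5 males it was at 58.4 ± 4.23 CPM in Tet1-KO and 48.3 ± 11.3 CPM in Tet1-WT. The share of male cells may thus differ between E10.5 pools, and its part in comparisons that use E10.5 was not tested. All 11 germ cell markers had counts in every group of the Tet1 cross. At E10.5 their summed level was 4000 and 6190 CPM in libraries labelled Tet1-KO and 1460 and 1780 CPM in those labelled Tet1-WT. Summed markers of gonadal and mesonephric mesenchyme (15 genes) ran from 573 to 1200 CPM in libraries labelled Tet1-KO and from 2270 to 2790 CPM in those labelled Tet1-WT at E10.5. They ran from 217 to 346 CPM in Tet1-KO and from 1460 to 2320 CPM in Tet1-WT males at E12.5, from 70.2 to 71.2 CPM and from 1030 to 1420 CPM in females of those genotypes, and from 30.3 to 56.3 CPM in all E14.5 libraries, where Osr1 was at 0. Over the 20 libraries the summed markers of supporting cells ran from 0 to 43.1 CPM (testis, 5 genes) and from 1.32 to 14.6 CPM (ovary, 4 genes), those of steroidogenic cells (4 genes) from 1.37 to 25.5 CPM and those of macrophages (3 genes) from 1.48 to 13.7 CPM. Those of endothelium (6 genes) ran from 57.6 to 431 CPM, of erythroid cells (5 genes) from 4.48 to 1720 CPM and of epithelium (4 genes, with Epcam, which germ cells share) from 28.1 to 235 CPM. The endothelium sum can rest on part of its list. It was 170 to 205 CPM in E10.5 libraries labelled Tet1-KO, with Tek, Emcn and Esam at 0. In E14.5 Tet1-WT females it was 57.6 to 72.7 CPM, with Cdh5, Kdr and Emcn at 0. All 6 genes had counts in each E12.5 group. In pooled sorted cells, fewer cells of a type and less RNA per cell cannot be told apart. With 2 pools a group, the p-values rest only on the spread between pools. In the fit of the Tet1 cross that spread is estimated over all 10 groups, not over the compared groups alone.

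Per kilobase of exon, Eed, Jarid2 and Mtf2 had the highest levels of the 8 genes and Aebp2 the lowest. The mean over the 20 libraries was 33.7 CPM per kb for Eed, 30.7 for Jarid2 and 28.3 for Mtf2. It was 18.5 CPM per kb for Phf19, between 12.9 and 16.7 for Suz12, Ezh2 and Ezh1 in falling order, and 2.62 for Aebp2. These lengths sum all annotated exons of a gene, so genes with many alternative exons read low. Between groups the range was widest for Phf19, whose highest group mean was 15.4 times its lowest, followed by Ezh1 with 9.2 and Ezh2 with 4.06. The other genes stayed between 2.24 and 2.69 times.

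**Figure D1:**
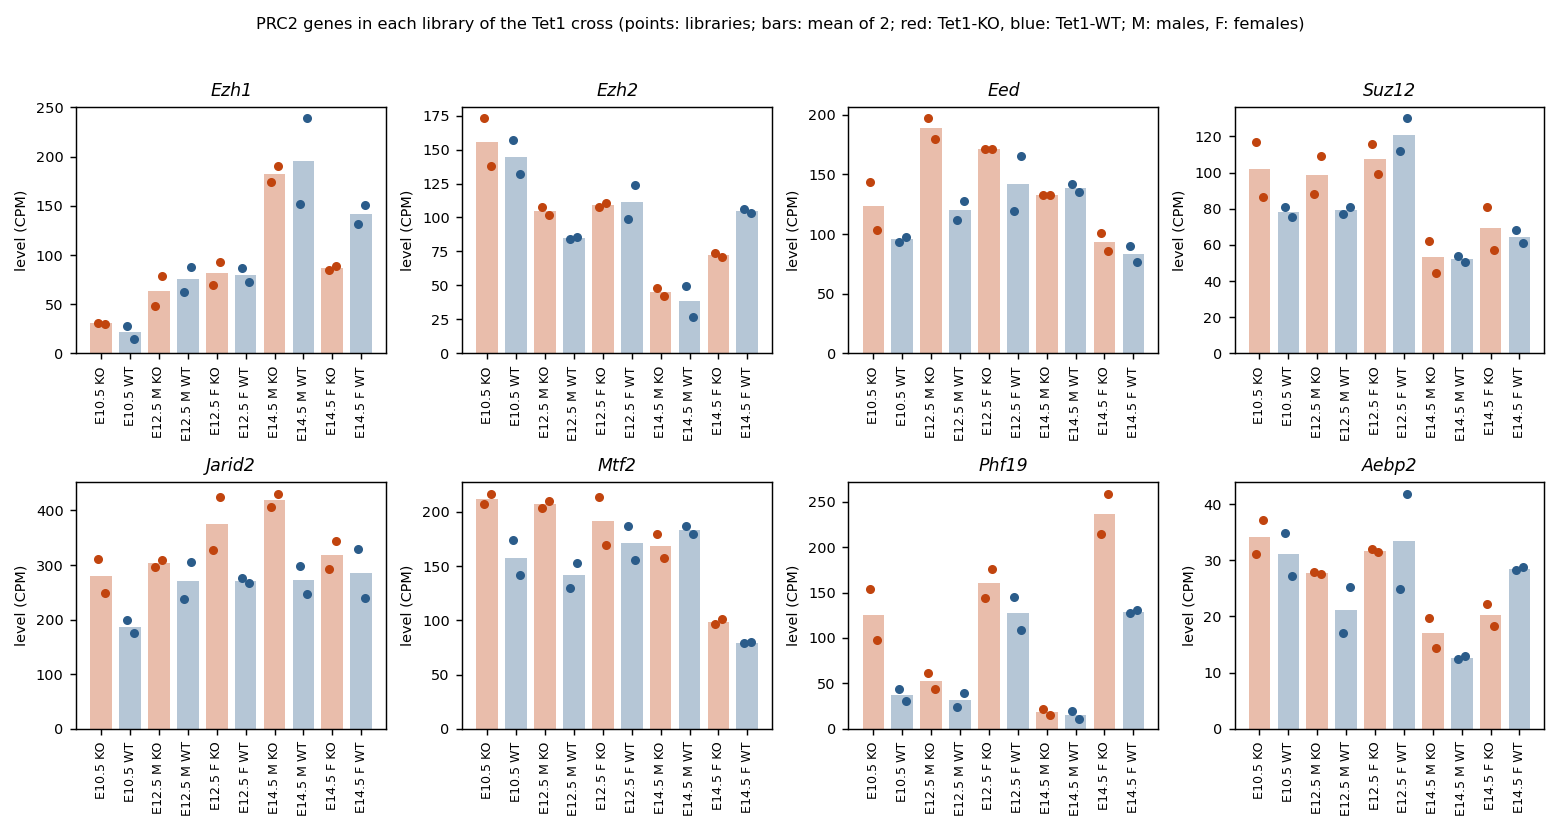
Level of each PRC2 gene (CPM, linear axis from 0) in every library of the Tet1 cross by stage, sex (M, males; F, females) and genotype; points are libraries and bars the mean of 2. Ezh1 is highest at E14.5 in males and Ezh2 at E10.5, and Phf19 stands apart between the sexes at E14.5 (21.4 CPM or less in males, 127 CPM or more in females).

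Of the catalytic subunits in the Tet1 cross, Ezh1 had its lowest levels at E10.5 and its highest in E14.5 males. Ezh2 had its highest levels there at E10.5 and its lowest in E14.5 males. Ezh1 stood at 31 and 30.1 CPM in E10.5 libraries labelled Tet1-KO and at 27.5 and 15 CPM in those labelled Tet1-WT. At E12.5 it was at 48.5 and 78.5 CPM in Tet1-KO and 62.7 and 88.1 CPM in Tet1-WT males, and at 69.7 and 93.2 CPM in Tet1-KO and 86.4 and 72.3 CPM in Tet1-WT females. By E14.5 it stood at 174 and 190 CPM in Tet1-KO and 152 and 239 CPM in Tet1-WT males, and at 84.7 and 88.9 CPM in Tet1-KO and 132 and 151 CPM in Tet1-WT females. In the Tet1 cross, every E12.5 library lay above every E10.5 library, and every E14.5 male library above every E12.5 library. E14.5 Tet1-KO females overlapped E12.5 females. The MF1 libraries at E10.5, scaled in their own fit, stood at 78.7 and 12.1 CPM, the first among the E12.5 values. Of the 9 pairs of neighbours in the order of the 10 group means, 5 overlapped.

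In Tet1-KO, Ezh1 rose in E12.5 males (log2 1.06, SE 0.3, adjusted p = 0.0373) and in E12.5 females (log2 1.41, SE 0.3, adjusted p = 0.00686), both against the same E10.5 libraries of that label. The male call was lost without either E10.5 library (adjusted p = 0.0813 and 0.111) or E12.5 library B (0.331), and the female call without E12.5 library B (0.0696). Both calls were also lost with limma's voom (0.208 in males and 0.0695 in females) and when only the 4 libraries compared were fitted (0.172 and 0.0843). In Tet1-WT it rose over the same step by 1.83 in males (SE 0.3, adjusted p = 0.00141) and by 1.9 in females (SE 0.3, adjusted p = 0.000734), and both calls held without any 1 library. Between E12.5 and E14.5 it rose by 1.52 in Tet1-KO males (SE 0.3, adjusted p = 0.00519), which was lost without E12.5 library A (0.0861) or E14.5 library B (0.0529). In Tet1-KO females that step gave 0.09 (95% interval -0.53 to 0.71, adjusted p = 0.901). It rose by 1.37 in Tet1-WT males (SE 0.3, adjusted p = 0.00707), which was lost without E12.5 replicate 1 (0.0926) or E14.5 replicate 2 (0.0898). It rose by 0.83 in Tet1-WT females (SE 0.29, adjusted p = 0.048), which was lost without any 1 of the 4 libraries (0.0952 to 0.264). The summed germ cell markers also differed across these stages, from 4000 to 6190 CPM at E10.5, 6900 to 6990 CPM at E12.5 and 5400 to 11000 CPM at E14.5 in Tet1-KO. In Tet1-WT they ran from 1460 to 1780 CPM, 5020 to 7760 CPM and 5670 to 11000 CPM at those stages. Their part in the Ezh1 values was not tested.

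Ezh2 stood at 173 and 138 CPM in E10.5 libraries labelled Tet1-KO and at 157 and 132 CPM in those labelled Tet1-WT. The E12.5 libraries were at 108 and 102 CPM in Tet1-KO and 84.5 and 85.3 CPM in Tet1-WT males, and at 108 and 111 CPM in Tet1-KO and 98.9 and 124 CPM in Tet1-WT females. At E14.5 it was at 47.9 and 42.1 CPM in Tet1-KO and 49.5 and 27 CPM in Tet1-WT males, and at 74.2 and 70.9 CPM in Tet1-KO and 106 and 103 CPM in Tet1-WT females. In the Tet1 cross, the E14.5 male libraries lay below all others, and the E10.5 libraries above all others. The MF1 libraries at E10.5, scaled in their own fit, stood at 134 and 86.2 CPM. In males Ezh2 fell between E12.5 and E14.5, with a log2 difference of -1.22 in Tet1-KO (SE 0.23, adjusted p = 0.00382) and -1.15 in Tet1-WT (SE 0.23, adjusted p = 0.00411). The first call was lost without E14.5 library B (adjusted p = 0.0622) and the second without E14.5 replicate 2 (0.0558) or when only these 4 libraries were fitted (0.0599). In Tet1-WT males it also fell between E10.5 and E12.5 (log2 -0.77, SE 0.22, adjusted p = 0.0422), and each of its 4 libraries was needed for that call (0.0791 to 0.226 without 1). Over that step Ezh2 gave -0.56 in Tet1-KO males (adjusted p = 0.134), -0.50 in Tet1-KO females (0.171) and -0.37 in Tet1-WT females (0.302). In females the E14.5 step gave -0.59 in Tet1-KO (adjusted p = 0.109; called by limma's voom, 0.0434) and -0.10 in Tet1-WT (95% interval -0.57 to 0.38, adjusted p = 0.808).

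In the Tet1 cross, the ratio of Ezh2 to Ezh1 per kilobase of exon was above 5 in every E10.5 library. It was below 1 in every E14.5 library, and 1.9 and 7.95 in the MF1 libraries at E10.5. At E10.5 it was 6.2 and 5.11 in the libraries labelled Tet1-KO and 6.38 and 9.81 in those labelled Tet1-WT. At E12.5 it ran from 1.44 to 2.49 in Tet1-KO and from 1.08 to 1.5 in Tet1-WT males, and from 1.33 to 1.72 in Tet1-KO and from 1.28 to 1.92 in Tet1-WT females. At E14.5 it was 0.307 and 0.247 in Tet1-KO and 0.364 and 0.126 in Tet1-WT males, and 0.976 and 0.888 in Tet1-KO and 0.899 and 0.756 in Tet1-WT females. The male and female libraries overlapped at E12.5 and did not overlap at E14.5. These ratios are a description of RNA and were not tested, and their absolute size depends on the exon lengths used.

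**Figure D2:**
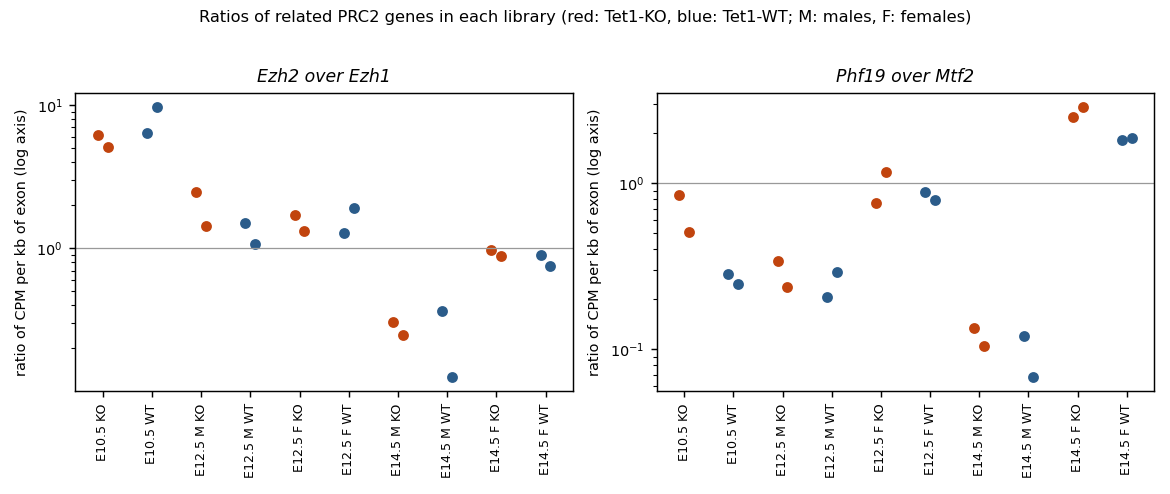
Ratio of Ezh2 to Ezh1 (left) and of Phf19 to Mtf2 (right), both from CPM per kb of exon on a log axis, in each library of the Tet1 cross. Libraries are shown by stage, sex (M, males, and F, females) and genotype. The grey line marks a ratio of 1. Ezh2 over Ezh1 declines at each stage to 0.364 or less in E14.5 males, and Phf19 over Mtf2 is 0.134 or less in E14.5 males and 1.82 or more in E14.5 females.

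Of the core partners, by edgeR, Eed fell between E12.5 and E14.5 in females of both genotypes, and Suz12 in Tet1-KO males and Tet1-WT females. Eed, the reader of the mark, stood at 144 and 103 CPM in E10.5 libraries labelled Tet1-KO and at 93.7 and 97.7 CPM in those labelled Tet1-WT. At E12.5 it was at 197 and 180 CPM in Tet1-KO and 112 and 128 CPM in Tet1-WT males, and at 171 and 171 CPM in Tet1-KO and 119 and 165 CPM in Tet1-WT females. By E14.5 it stood at 133 and 133 CPM in Tet1-KO and 142 and 135 CPM in Tet1-WT males, and at 101 and 86.1 CPM in Tet1-KO and 90 and 76.7 CPM in Tet1-WT females. The 4 E14.5 female libraries lay below all E12.5 libraries and all E14.5 male libraries. The log2 difference of Eed between E12.5 and E14.5 was -0.87 in Tet1-KO females (SE 0.18, adjusted p = 0.00711) and -0.77 in Tet1-WT females (SE 0.19, adjusted p = 0.0061). The first call was lost without E14.5 library B (adjusted p = 0.065), and the second without E12.5 replicate 2 (0.0753) or E14.5 replicate 2 (0.0775). In males the step gave -0.50 in Tet1-KO (adjusted p = 0.0964) and 0.20 in Tet1-WT (adjusted p = 0.523). That of Tet1-KO males was called by DESeq2 (0.0476), by limma's voom (0.00567) and when only these 4 libraries were fitted (0.00679).

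Suz12, which scaffolds the complex, stood between 75.6 and 117 CPM at E10.5 in the Tet1 cross. It stood between 77.3 and 130 CPM at E12.5 and between 44.2 and 80.9 CPM at E14.5. In Tet1-KO males it was at 62.1 and 44.2 CPM at E14.5, against 88.4 and 109 CPM at E12.5, without overlap. Its log2 difference there was -0.89 (SE 0.22, adjusted p = 0.0165), a call lost without E12.5 library B (0.145) or E14.5 library B (0.211). In Tet1-WT females it was at 68.1 and 60.8 CPM at E14.5, against 112 and 130 CPM at E12.5, again without overlap. Here it was -0.91 (SE 0.22, adjusted p = 0.00541), a call lost without E14.5 replicate 2 (0.0597). The step gave -0.64 in Tet1-KO females (adjusted p = 0.0689) and -0.60 in Tet1-WT males (adjusted p = 0.0794) by edgeR. DESeq2 called the fall of Suz12 in both of these groups as well (0.047 and 0.0327), and limma's voom in Tet1-KO females (0.0341). In the order of its 10 group means, 8 of 9 neighbouring pairs overlapped.

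Of the Polycomb-like genes followed here, Phf19 separated the sexes at both stages and Mtf2 at E14.5. Phf19 was the PRC2 gene with the largest difference between males and females at both stages, and at E14.5 Mtf2 stood the other way round. Phf19 stood at 154 and 97.4 CPM in E10.5 libraries labelled Tet1-KO and at 43.6 and 31 CPM in those labelled Tet1-WT. The E12.5 libraries were at 61.1 and 43.7 CPM in Tet1-KO and 23.8 and 39.2 CPM in Tet1-WT males, and at 144 and 176 CPM in Tet1-KO and 145 and 109 CPM in Tet1-WT females. At E14.5 it was at 21.4 and 14.7 CPM in Tet1-KO and 19.9 and 10.8 CPM in Tet1-WT males, and at 214 and 259 CPM in Tet1-KO and 127 and 131 CPM in Tet1-WT females. All male libraries lay below all female libraries. At E14.5 Phf19 was lower in males, with a log2 difference of -3.71 in Tet1-KO (SE 0.36, adjusted p = 9.96e-06) and -3.08 in Tet1-WT (SE 0.35, adjusted p = 1.21e-05), and both calls held without any 1 library. Males were also lower at E12.5. The difference was -1.61 in Tet1-KO (SE 0.33, adjusted p = 0.0478), and each of the 4 libraries was needed for the call (0.129 to 0.383 without 1). It was -2.01 in Tet1-WT (SE 0.34, adjusted p = 0.00975), which was lost without male replicate 1 (0.174).

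Over time, Phf19 fell between E10.5 and E12.5 in Tet1-KO males (log2 -1.26, SE 0.33, adjusted p = 0.0254), against libraries labelled Tet1-KO at E10.5. That call was lost without E10.5 replicate 1 (0.126) or either E12.5 library (0.0575 and 0.202), and when only these 4 libraries were fitted (0.137). It rose over the same step in Tet1-WT females by 1.77 (SE 0.33, adjusted p = 0.00235), against libraries labelled Tet1-WT, and this held without any 1 library. It fell between E12.5 and E14.5 in Tet1-KO males (log2 -1.54, SE 0.34, adjusted p = 0.00951), which was lost without E12.5 library A (0.0935) or E14.5 library B (0.127). In Tet1-WT males that step gave -1.05 (SE 0.33, adjusted p = 0.0516), and it was called by DESeq2 (adjusted p = 0.013), with DESeq2's scaling in edgeR (0.0472) and without a filter on low counts (0.000754). In E14.5 females the step gave 0.56 in Tet1-KO (adjusted p = 0.299) and 0.02 in Tet1-WT (adjusted p = 0.987).

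Mtf2 stood at 207 and 217 CPM in E10.5 libraries labelled Tet1-KO and at 174 and 142 CPM in those labelled Tet1-WT. At E12.5 it ran from 130 to 214 CPM. There Mtf2 was not called between males and females by edgeR, with log2 0.11 in Tet1-KO (adjusted p = 0.962) and -0.28 in Tet1-WT (0.5). By E14.5 it stood at 180 and 158 CPM in Tet1-KO and 187 and 180 CPM in Tet1-WT males, and at 96.8 and 101 CPM in Tet1-KO and 78.8 and 79.8 CPM in Tet1-WT females. The E14.5 female libraries lay below all other libraries. Mtf2 fell in females between E12.5 and E14.5, with a log2 difference of -0.95 in Tet1-KO (SE 0.16, adjusted p = 0.00132) and -1.11 in Tet1-WT (SE 0.16, adjusted p = 0.000103), and both calls held without any 1 library. At E14.5 it was higher in males by 0.77 in Tet1-KO (SE 0.16, adjusted p = 0.00309) and by 1.21 in Tet1-WT (SE 0.16, adjusted p = 4.02e-05). The first was lost without female library A (0.053) or male library A (0.0511), and the second held without any 1 library. Exons of Mtf2 share 395 bases with Tmed5 on the opposite strand, and as the strand setting of the counts is not given in the sources used here, some reads may belong to either gene. Per kilobase, Phf19 over Mtf2 at E14.5 was 0.134 and 0.105 in Tet1-KO and 0.12 and 0.0677 in Tet1-WT males, and 2.5 and 2.89 in Tet1-KO and 1.82 and 1.86 in Tet1-WT females.

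For Jarid2 and Aebp2, of the alternative assembly, edgeR called no step in time. Jarid2, a DNA-binding partner that helps bring PRC2 to chromatin, stood at 311 and 249 CPM in E10.5 libraries labelled Tet1-KO and at 199 and 175 CPM in those labelled Tet1-WT. At E12.5 it was at 296 and 310 CPM in Tet1-KO and 238 and 305 CPM in Tet1-WT males, and at 328 and 424 CPM in Tet1-KO and 276 and 267 CPM in Tet1-WT females. At E14.5 it was at 406 and 431 CPM in Tet1-KO and 299 and 246 CPM in Tet1-WT males, and at 293 and 344 CPM in Tet1-KO and 330 and 239 CPM in Tet1-WT females. Tet1-KO libraries lay above Tet1-WT libraries without overlap at E10.5 (by label), in E12.5 females and in E14.5 males, and overlapped them in E12.5 males and E14.5 females. By edgeR no step in time and no difference between the sexes was called for Jarid2 (log2 -0.31 to 0.54, lowest adjusted p = 0.0745). The E14.5 step of Jarid2 in Tet1-KO males (log2 0.47, adjusted p = 0.134) was called by DESeq2 (0.0469), by limma's voom (0.0217) and when only these 4 libraries were fitted (0.00726). Aebp2, a zinc finger partner, ran from 12.4 to 41.9 CPM in the Tet1 cross. Its E14.5 step in Tet1-KO males was called by limma's voom (log2 -0.73, adjusted p = 0.0261) and when only these 4 libraries were fitted (0.0467). At E14.5 it stood at 12.4 and 12.9 CPM in Tet1-WT males against 28.2 and 28.8 CPM in Tet1-WT females, without overlap, and was lower in males (log2 -1.17, SE 0.29, adjusted p = 0.00679). That call held without any 1 library. In Tet1-KO the same difference was -0.25 (95% interval -0.86 to 0.36, adjusted p = 0.6).

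Counted by comparison, PRC2 genes were called in numbers to be read beside the share of all 17567 genes tested that were called (edgeR's quasi-likelihood test, Benjamini-Hochberg adjusted p under 0.05). In Tet1-KO, 2 of 8 were called between E10.5 and E12.5 in males (Ezh1 higher, Phf19 lower), beside 9.09% of all genes, and 1 of 8 in females (Ezh1), beside 10.4%. In Tet1-WT it was 2 of 8 in males (Ezh1 higher, Ezh2 lower), beside 9.45%, and 2 of 8 in females (Ezh1 and Phf19 higher), beside 13.6%. Between E12.5 and E14.5, 4 of 8 were called in Tet1-KO males (Ezh1 higher; Ezh2, Suz12 and Phf19 lower), beside 10.4%, and 2 of 8 in Tet1-KO females (Eed and Mtf2 lower), beside 11%. DESeq2 called 6 and limma's voom 7 of 8 in those males, and 3 and 4 of 8 in those females. The shares of all genes, here and below, are those of edgeR's adjusted test. Counts by another tool or at an unadjusted p have no share beside them and cannot be weighed against all genes. Over the 4 steps of Tet1-KO, DESeq2 made 13 calls and voom 12, against 9 by edgeR. The same step called 2 of 8 in Tet1-WT males (Ezh1 higher, Ezh2 lower), beside 12.7%, and 4 of 8 in Tet1-WT females (Ezh1 higher; Eed, Suz12 and Mtf2 lower), beside 25.3%. The median log2 difference over the 8 genes in that step was -0.60 in Tet1-KO males, -0.62 in Tet1-KO females, -0.30 in Tet1-WT males and -0.16 in Tet1-WT females, with medians of 0.01, -0.01, 0.00 and -0.07 over all genes in that order. In the E14.5 steps of Tet1-WT the summed mesenchyme markers stood at 35.5 to 44 CPM in E14.5 males, against 1460 to 2320 CPM at E12.5, and at 48.7 to 56.3 CPM in females, against 1030 to 1420 CPM. In Tet1-KO they stood at 38.4 to 40.2 CPM in males, against 217 to 346 CPM, and at 30.3 to 33.9 CPM in females, against 70.2 to 71.2 CPM. Their part in the steps was not tested.

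**Figure D3:**
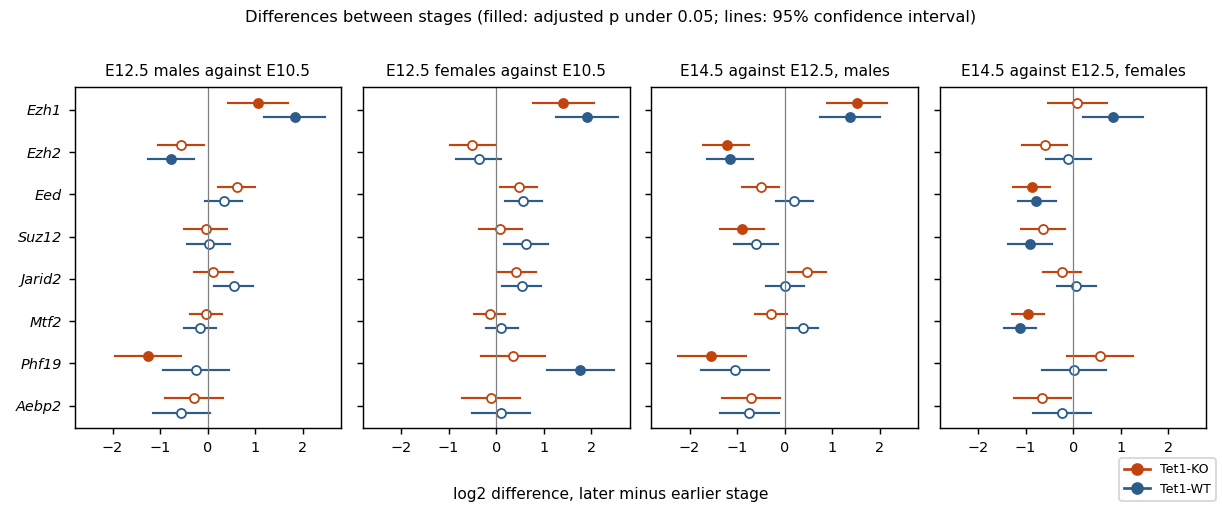
Log2 difference between stages for each PRC2 gene, later minus earlier, in males and females of Tet1-KO (red) and Tet1-WT (blue); lines are 95% confidence intervals and filled points have an adjusted p under 0.05. Ezh1 is above 1 on the log2 scale in 3 of the 4 panels in both genotypes, Ezh2 is below -1 in E14.5 males of both, and Mtf2 is near -1 in E14.5 females of both.

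Between the sexes at E12.5, 1 of 8 genes was called in Tet1-KO (Phf19, lower in males), beside 0.398% of all genes, and the same gene alone in Tet1-WT, beside 0.575%. At E14.5, 4 of 8 were called in Tet1-KO, beside 19% of all genes, with Ezh1 and Mtf2 higher and Ezh2 and Phf19 lower in males. In Tet1-WT it was 5 of 8, beside 28.1%, with Eed and Mtf2 higher and Ezh2, Phf19 and Aebp2 lower in males. Ezh2 was lower in E14.5 males, with a log2 difference of -0.69 in Tet1-KO (SE 0.23, adjusted p = 0.0442) and -1.45 in Tet1-WT (SE 0.23, adjusted p = 0.000208). The first call was lost without any 1 of the 4 libraries (0.0823 to 0.228), and the second held. Ezh1 was higher in E14.5 males by 1.07 in Tet1-KO (SE 0.29, adjusted p = 0.0192), which was lost without any 1 of the 4 libraries (0.0575 to 0.118), and the difference was 0.46 in Tet1-WT (adjusted p = 0.257). Eed was higher in E14.5 males by 0.73 in Tet1-WT (SE 0.19, adjusted p = 0.00769), which was lost without female replicate 2 (0.085), and the difference was 0.51 in Tet1-KO (adjusted p = 0.066; called by DESeq2, 0.0467, and limma's voom, 0.0335). At E14.5 the summed germ cell markers ran from 10800 to 11000 CPM in Tet1-KO and from 10900 to 11000 CPM in Tet1-WT males, and from 5400 to 5790 CPM in Tet1-KO and from 5670 to 5880 CPM in Tet1-WT females. Female germ cells enter meiosis at about this stage and male germ cells stop dividing, and the part of these states in the differences was not tested.

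**Figure D4:**
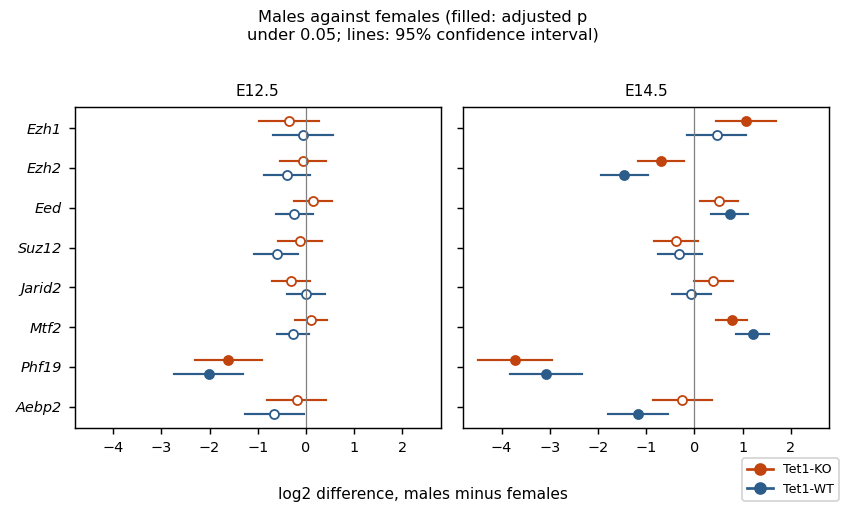
Log2 difference between males and females (males minus females) for each PRC2 gene at E12.5 and E14.5 in Tet1-KO (red) and Tet1-WT (blue); lines are 95% confidence intervals and filled points have an adjusted p under 0.05. Phf19 lies farthest below 0 at both stages, at -3.71 and -3.08 at E14.5, where Mtf2 lies above 0 at 0.77 and 1.21.

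Whether the E14.5 step itself differed between the sexes was tested as males minus females. In Tet1-KO, 1 of 8 genes was called, beside 5.09% of all genes: Phf19, with a difference of -2.1 on the log2 scale (SE 0.46, adjusted p = 0.017). In Tet1-WT, 3 of 8 were called, beside 12.1%: Ezh2 with -1.06 (SE 0.32, adjusted p = 0.0409), Eed with 0.97 (SE 0.26, adjusted p = 0.0239) and Mtf2 with 1.49 (SE 0.22, adjusted p = 0.000594). Ezh1 gave 1.42 in Tet1-KO (SE 0.41, adjusted p = 0.0591), and was called by DESeq2 (0.014), by limma's voom (0.0133), without a filter on low counts (0.00195) and when only these 8 libraries were fitted (0.0262), while DESeq2 also called Mtf2 there (0.62, adjusted p = 0.0395). The Tet1-WT call of Mtf2 held without any 1 library. That of Phf19 was lost without E12.5 female library A (0.0585) or B (0.0554), E12.5 male library A (0.0863) or E14.5 male library B (0.0842). That of Eed was lost without E12.5 female replicate 2 (0.0759), E12.5 male replicate 1 (0.0971), E14.5 female replicate 2 (0.0967) or E14.5 male replicate 1 (0.0618). That of Ezh2 was lost without any library but E14.5 male replicate 1 (0.0555 to 0.156).

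Between Tet1-KO and Tet1-WT, 1 PRC2 gene was called in 1 of the 5 stage and sex groups, and 4 were higher in Tet1-KO in the average. At E10.5, 1 of 8 genes was called by edgeR between the libraries labelled Tet1-KO and Tet1-WT, beside 8.81% of all genes. DESeq2 called 2, with Jarid2 as the other (log2 0.52, adjusted p = 0.0355, and 0.0424 by edgeR without a filter), and limma's voom called 1. The edgeR call was Phf19, higher in those labelled Tet1-KO (log2 1.75, SE 0.33, adjusted p = 0.00591), with libraries that did not overlap. The call was lost without Tet1-WT replicate 2 (0.0653), and its adjusted p was 0.166 when only these 4 libraries were fitted. In the other groups 0 of 8 were called, beside 1.06% of all genes in E12.5 males, 1.29% in E12.5 females, 0.102% in E14.5 males and 6.65% in E14.5 females. At an unadjusted p under 0.05 edgeR counted 3, 1, 1 and 3 genes in these groups, in that order, while DESeq2 called 2, 0, 0 and 0 and limma's voom 2, 0, 0 and 1 after adjustment. No share of all genes is given for these counts. The log2 differences there ran from -0.25 to 0.73 in E12.5 males (lowest adjusted p = 0.115), from -0.17 to 0.47 in E12.5 females (0.289), from -0.12 to 0.62 in E14.5 males (0.224) and from -0.71 to 0.87 in E14.5 females (0.127). Phf19 in E14.5 females, with Tet1-KO libraries at 214 and 259 CPM against 127 and 131 CPM in Tet1-WT, gave 0.87 (95% interval 0.19 to 1.56, adjusted p = 0.127) without overlap. It was called by limma's voom (adjusted p = 0.0136), when only these 4 libraries were fitted (0.0418) and without a filter on low counts (0.00666). Ezh1 in E14.5 females, with Tet1-KO libraries at 84.7 and 88.9 CPM against 132 and 151 CPM in Tet1-WT, gave -0.71 (95% interval -1.33 to -0.08, adjusted p = 0.178), also without overlap. In E12.5 males Eed gave 0.65 and Mtf2 0.55 (adjusted p = 0.115 each), and both were called by DESeq2 (0.0384 and 0.0361), limma's voom (0.00834 and 0.0204) and the fit of these 4 libraries alone (0.0283 and 0.0407).

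Averaged over the 5 groups with equal weight, 4 of 8 PRC2 genes were higher in Tet1-KO and 0 lower, beside 6.9% of all genes called higher and 13.9% called in either direction. Phf19 was higher (log2 0.79, SE 0.15, adjusted p = 0.00255) as was Jarid2 (log2 0.4, SE 0.08, adjusted p = 0.00625), and both calls held without any 1 library. Mtf2 was higher by 0.27 (SE 0.07, adjusted p = 0.0194), a call lost without E10.5 Tet1-WT replicate 2 (0.0524), E12.5 female Tet1-KO library A (0.0529), E12.5 male Tet1-WT replicate 1 (0.0521) or E14.5 male Tet1-KO library A (0.0577). Eed was higher by 0.28 (SE 0.08, adjusted p = 0.0348). It was lost with DESeq2's scaling (0.0662) and without 12 of the 20 libraries (0.0509 to 0.0806). Those were Tet1-WT replicate 2 and Tet1-KO replicate 1 at E10.5, male Tet1-KO libraries A and B, male Tet1-WT replicate 1, female Tet1-KO libraries A and B and female Tet1-WT replicate 1 at E12.5, and male Tet1-KO libraries A and B and replicate 2 of male and of female Tet1-WT at E14.5. Ezh1, Ezh2, Suz12 and Aebp2 gave between -0.10 and 0.13. The E10.5 labels enter this average, and without E10.5 only Jarid2 was called (0.35, SE 0.09, adjusted p = 0.0376), 1 of 8 beside 6.27% of all genes, while Phf19 gave 0.54 (adjusted p = 0.0608), Mtf2 0.23 (0.0987) and Eed 0.26 (0.115). The summed mesenchyme markers were lower in Tet1-KO than in Tet1-WT at E10.5 and E12.5, as given above, and in E14.5 females, at 30.3 and 33.9 CPM against 48.7 and 56.3 CPM. Their part in these differences was not tested. In the 6 tests of a difference between Tet1-KO effects (males minus females, and later minus earlier stage), which are also the tests of whether a step or a sex difference differed between the genotypes, 0 of 8 genes were called by edgeR, beside 0% of all genes for males minus females at E12.5 and 1.43% at E14.5, 0.803% and 1.3% for the E14.5 step of males and females, and 0.239% and 0.296% for the E12.5 step. The lowest adjusted p was 0.156, each test counted between 0 and 2 genes at an unadjusted p under 0.05, limma's voom called 0 and DESeq2 called 1 (Mtf2 in the E14.5 step of males, adjusted p = 0.0496).

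**Figure D5:**
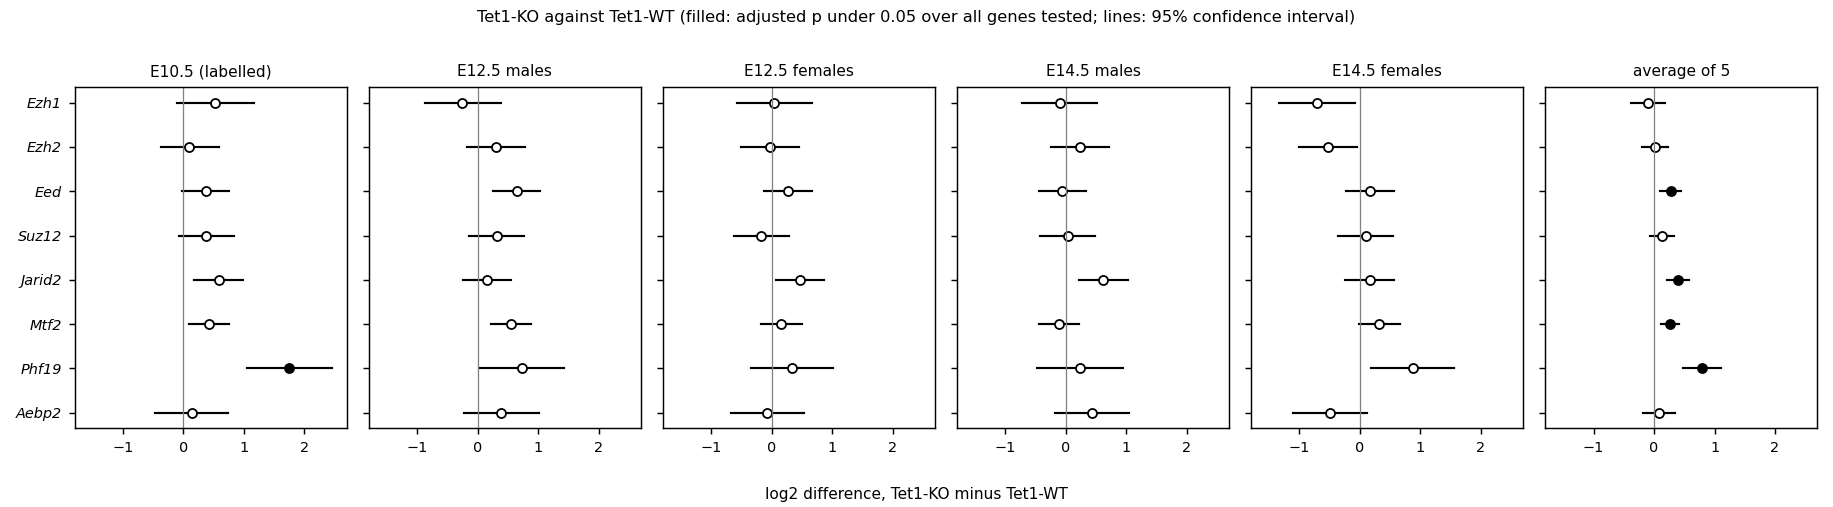
Log2 difference between Tet1-KO and Tet1-WT (Tet1-KO minus Tet1-WT) for each PRC2 gene in the 5 stage and sex groups and their average; lines are 95% confidence intervals and filled points have an adjusted p under 0.05. The filled points are Phf19 at E10.5 (1.75, libraries as labelled) and, in the average, Phf19, Jarid2, Mtf2 and Eed between 0.27 and 0.79.

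The MF1 cross gave a second view of E10.5 wild type PGCs. Its levels were scaled in a separate fit with the E10.5 Tet1-WT libraries. Phf19 stood at 205 and 131 CPM in the MF1 libraries. In the fit of the Tet1 cross it stood at 154 and 97.4 CPM in libraries labelled Tet1-KO and at 43.6 and 31 CPM in those labelled Tet1-WT. MF1 against Tet1-KO was not tested. Jarid2 stood at 436 and 289 CPM in the MF1 libraries and Eed at 119 and 192 CPM. Ezh1 differed widely between the MF1 libraries, at 78.7 and 12.1 CPM, and so did the ratio of Ezh2 to Ezh1 per kilobase, at 1.9 and 7.95. In a separate edgeR fit of MF1 against Tet1-WT libraries 0 of 8 genes were called, beside 0.606% of 15500 genes tested, with 2 at an unadjusted p under 0.05, and DESeq2 called 1. Phf19 gave 2.16 on the log2 scale (95% interval 1.13 to 3.2, adjusted p = 0.095; 2.54e-05 with DESeq2), and Jarid2 gave 0.95 (adjusted p = 0.202). The summed mesenchyme markers (15 genes) stood at 81.2 and 82.2 CPM in the MF1 libraries, against 2310 and 2770 CPM in Tet1-WT in this fit, and the germ cell markers at 5620 and 6020 CPM, against 1810 and 1450 CPM. Of the mesenchyme markers 6 were called lower in MF1, for example Col3a1, a collagen gene, at 3.86 ± 0.695 CPM against 325 ± 57.6 CPM (log2 -6.4, adjusted p = 0.0351). Their part in the MF1 differences was not tested, and cross, RNA kit and depth differed together here and cannot be told apart.

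Other Polycomb genes were counted from a fixed list of 34, all tested: other PRC2 genes, the demethylases that remove the mark, canonical PRC1, whose CBX subunits read it, and variant PRC1, which lacks them. Between E12.5 and E14.5, 4 of 34 rose and 2 fell in Tet1-KO males, and 5 rose and 1 fell in Tet1-KO females, beside 10.4% and 11% of all genes called. In Tet1-WT it was 2 and 2 in males, beside 12.7%, and 7 and 2 in females, beside 25.3%. DESeq2 called 10 of the 34 and limma's voom 14 in Tet1-KO males, against 6 by edgeR, with a share of all genes given for edgeR only. Rbbp7, a histone-binding partner of PRC2, rose in E14.5 males of both genotypes. It stood at 363 ± 3.78 CPM at E14.5 against 229 ± 2.26 CPM at E12.5 in Tet1-KO (SD, n = 2; log2 0.67, adjusted p = 0.00798), and at 455 ± 18.3 CPM against 236 ± 20 CPM in Tet1-WT (log2 0.95, adjusted p = 0.000553). The Tet1-KO call was lost without any 1 of the 4 libraries (0.0601 to 0.0866). Lcorl, the locus of the PRC2 partner PALI2, was lower in E14.5 males than in females, at 7.92 ± 3.13 against 28.2 ± 9.17 CPM in Tet1-KO (log2 -1.84, adjusted p = 0.00248) and at 9.71 ± 0.391 against 53.9 ± 12.2 CPM in Tet1-WT (log2 -2.47, adjusted p = 0.000122).

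Between the sexes at E14.5, 4 of 34 other Polycomb genes were higher and 6 lower in males in Tet1-KO, beside 19% of all genes called, and 2 higher and 8 lower in Tet1-WT, beside 28.1%. Uty, a Y-linked gene, is among the genes higher in males. Kdm6a, an X-linked demethylase of the mark, was at 21.4 ± 0.213 CPM in Tet1-KO males against 73 ± 6.93 CPM in females, and at 25.3 ± 5.22 CPM in Tet1-WT males against 147 ± 33.8 CPM in females (log2 -1.77 and -2.54, adjusted p = 0.00156 and 4.32e-05). Phc1, a PRC1 subunit, was at 337 ± 12.7 against 101 ± 51.5 CPM in Tet1-KO and at 223 ± 22.4 against 89.8 ± 22.2 CPM in Tet1-WT, higher in males by 1.74 and 1.31 on the log2 scale (adjusted p = 0.000411 and 0.00177). In Tet1-KO against Tet1-WT, 4 of 34 were higher and 3 lower at E10.5 by label, beside 8.81% of all genes called. In E12.5 females 0 were higher and 1 lower (Kdm6b), beside 1.29%. In E14.5 females 2 were higher and 0 lower (Cbx2 and Pcgf2), beside 6.65%. In E12.5 and E14.5 males 0 were called, beside 1.06% and 0.102%. In those male groups edgeR counted 4 and 6 of the 34 at an unadjusted p under 0.05, DESeq2 called 1 in each, and limma's voom called 3 and 0. At E10.5 limma's voom called 0 of the 34 and DESeq2 called 9. For these tools and for the unadjusted counts no share of all genes is given. The calls of Cbx2 (log2 1.27) and Pcgf2 (log2 1.06) were lost without any 1 of the 4 libraries (0.0527 to 0.199 and 0.0773 to 0.325). That of Kdm6b (log2 -1.84) needed both Tet1-KO libraries (0.0917 and 0.134 without 1) and Tet1-WT replicate 2 (0.162). Yaf2, a variant PRC1 subunit, averaged 8.7 ± 1.85 CPM in libraries labelled Tet1-KO and 43.9 ± 4.59 CPM in those labelled Tet1-WT at E10.5 (log2 -2.33, adjusted p = 0.00581; 0.156 when only these 4 libraries were fitted and 0.0611 with limma's voom), and its average over the 5 groups was -1.11 (adjusted p = 0.00138).

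Of 12 developmental regulators known to carry the H3K27me3 mark in embryonic stem cells, 6 had enough counts to be tested, and their summed level was low, from 4.32 to 51.8 CPM. Gata6, a regulator of endoderm that mesenchyme also uses, was called between genotypes in E12.5 females, at 0.698 ± 0.109 CPM in E12.5 Tet1-KO females against 21.9 ± 4.21 CPM in Tet1-WT females (log2 -4.97, adjusted p = 0.00745). That call was lost without either Tet1-KO library (0.123 and 0.133). It was low where the summed mesenchyme markers were low, at 70.2 and 71.2 CPM against 1030 and 1420 CPM, whose part in it was not tested. Of 21 cell division genes, 8 fell and 0 rose between E12.5 and E14.5 in Tet1-KO males, and likewise in Tet1-KO females, beside 10.4% and 11% of all genes called. In Tet1-WT it was 10 and 1 in males, beside 12.7%, and 13 and 2 in females, beside 25.3%. Their summed level at E14.5 was 5240 to 6320 CPM in Tet1-KO and 4060 to 6010 CPM in Tet1-WT males, and 5450 to 6470 CPM in Tet1-KO and 5540 to 5730 CPM in Tet1-WT females. At E12.5 it was 8610 to 8880 CPM and 7140 to 8560 CPM in males of those genotypes, and 8890 to 10200 CPM and 7380 to 7910 CPM in females.

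The genes most like each PRC2 gene were found as a description, by Pearson's r of log2(CPM + 1) over the 20 libraries among 9655 genes with a mean of at least 5 CPM. The libraries come as pairs from 10 groups, so any gene that follows stage or sex can score high. Ezh1 was most like Mgmt (r = 0.967), Cep85 (0.966) and Piwil2 (0.958), a gene of the piRNA pathway of germ cells. Ezh2 was most like Mrpl18 (0.949), the linker histone gene Hist1h1b (0.94) and Ryk (0.932). Phf19 was most like the orphan nuclear receptor gene Nr6a1 (0.933), Sct (0.93) and Phlda2 (0.926). Mtf2 was most like C1qbp (0.948), Mup6 (0.947, of a family of near-identical copies, so its counts are uncertain) and Gcsh (0.938), and Eed was most like Brix1 (0.936), Cetn3 (0.924) and Msh6 (0.916). Suz12 was most like Mier1 (0.902), Mir17hg (0.899) and D17Wsu92e (0.896), and Jarid2 like Ide (0.881), Dars (0.858) and Sdad1 (0.852). Aebp2 was most like Khsrp (0.894), Ezh2 (0.884) and Atp2a2 (0.872), the one case in which another PRC2 gene was among the 3.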

How the data were processed

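RNA-seq of sorted PGCs was deposited as raw counts per gene, made with HTSeq per the labels, in 1 table for 20 libraries of the Tet1 cross and 1 for 2 MF1 libraries. The submitters' processing notes name mm9, Trimmomatic, Bowtie 0.12.8, TopHat2 2.0.2 and HTSeq 0.5.3p9. The annotation, the strand setting and the handling of reads with several matches are not given in the sources used here. Amplified cDNA was counted without molecular identifiers. Replicates within a group correlated at r = 0.898 to 0.978 on the log scale in the Tet1 cross. The 8 Tet1-KO columns at E12.5 and E14.5 carry the same name within each group, so their libraries are called A and B in column order, as names only.

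The main test was edgeR's robust quasi-likelihood test (edgeR 4.0.16, limma 3.58.1, R 4.3.3) on all 20 libraries with 1 coefficient for each of the 10 groups, TMM scaling and edgeR's filter on low counts (minimum count 10, minimum total 15). It left 17567 genes, with 10 residual degrees of freedom and a biological coefficient of variation of 0.46 shared by all genes. The MF1 fit had its own 4 libraries, 15500 genes, 2 degrees of freedom and a coefficient of 0.784. Benjamini-Hochberg adjustment ran over all genes tested in a comparison, and a gene was called with an adjusted p under 0.05. CPM use the scaled library totals, and SE and intervals (95%) come from the fit. Alternatives were DESeq2 1.42.0, its size factors in edgeR, limma's voom with quality weights, no filter, a fit of the compared libraries alone, a replicate block, and each library left out in turn. Of these fits only edgeR's was run on simulated data, for Tet1-KO against Tet1-WT in E14.5 females alone. Tables and figures used Python 3.11.15 and matplotlib 3.10.9.

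Of 37991 gene IDs, 32919 matched a symbol. Exon lengths were taken from GENCODE vM21 on GRCm38, later than mm9, and start regions from RefSeq on GRCm38.p6. The symbol Sox1 had no match, and Ezhip was found under AU022751. The members and lists were chosen with earlier results of these data known. Named were all 8 PRC2 genes, Tet1 in every library, the 3 genes most like each, and from other lists called genes with the smallest adjusted p, at most 4 a comparison.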

Additional observations from a re-analysis of the deposited data

Results flagged for a closer look

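The step between E12.5 and E14.5 differed between males and females for 4 combinations of PRC2 gene and genotype, by edgeR's test of the difference itself (males minus females). In Tet1-KO the difference was -2.1 on the log2 scale for Phf19 (adjusted p = 0.017), 1 of 8 genes beside 5.09% of all genes called. In Tet1-WT it was -1.06 for Ezh2 (adjusted p = 0.0409), 0.97 for Eed (adjusted p = 0.0239) and 1.49 for Mtf2 (adjusted p = 0.000594). These were 3 of 8 genes, beside 12.1% of all genes called. As given above, the calls of Phf19, Ezh2 and Eed were each lost when certain libraries were left out, and only that of Mtf2 held. In a fit of the 8 Tet1-WT libraries alone 1 of the 3 Tet1-WT calls was made.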

How the results depend on the processing

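Of 39 calls of PRC2 genes over all comparisons, 13 held without any 1 library and 26 were lost without at least 1. DESeq2 and the fit without a filter kept all 39, DESeq2's scaling 38, limma's voom 37, and a fit of the compared libraries alone 28 of 35. Counts of called genes in the rest of this section are calls summed over comparisons, and a gene is counted in each comparison that calls it. Thus 30 calls come from a list of 21 cell division genes. No share of all genes is given for these settings, so the counts cannot be weighed against all genes. The count of PRC2 genes called between Tet1-KO and Tet1-WT in the 5 groups was 1, and became 3 without a filter, 4 with DESeq2, 4 with voom and 3 in fits of the compared libraries alone (0 to 2 with a library left out). The average over groups called 4, and 1 without E10.5, an alternative chosen after seeing the data (2 to 4 with a library left out). Differences of the Tet1-KO effect called 0, and 1 without a filter and with DESeq2 (0 throughout with a library left out). The sex difference of the E14.5 step called 1 in Tet1-KO, and 2 without a filter, 3 with DESeq2, 2 with voom and 2 in the compared libraries alone (0 to 2). In Tet1-WT it called 3, and 1 in the compared libraries alone. Without a filter it called 4 there, with Phf19 added (log2 -1.05, adjusted p = 0.0288 by edgeR). MF1 against Tet1-WT called 0, and 1 without a filter and with DESeq2 (0 to 3), and Ezh1, at 1.09, reversed to -0.67 (adjusted p = 0.368) without MF1 replicate 1 and ranged up to 1.88 without replicate 2. With a library left out, steps in time called 5 to 9 in Tet1-KO (9 with all) and 7 to 11 in Tet1-WT (10 with all). Sex differences called 2 to 4 in Tet1-KO (5 with all) and 5 to 6 in Tet1-WT (6 with all). Other Polycomb genes called between genotypes numbered 10, and 16 with DESeq2 and 2 in the compared libraries alone (4 to 10). In Tet1-WT they numbered 25 for steps (15 to 25) and 11 for the sexes (9 to 11). Cell division genes called between genotypes numbered 7, and 14 without a filter, 11 with DESeq2 and 4 in the compared libraries alone (0 to 7). In Tet1-WT they numbered 30 for steps (20 to 29) and 12 for the sexes, and 7 in the compared libraries alone (7 to 13). For these changes of count the cause was not tested, though fits of fewer libraries have fewer residual degrees of freedom.

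Replicate numbers did not pair the samples: over 15 pairs of groups the correlation of replicate 1 minus replicate 2 ran from -0.032 to 0.048 (median 0.007). A replicate block could be fitted to the 12 numbered libraries and to the MF1 fit. With the block those 12 kept 15 of 20 calls of PRC2 genes, as they did without it, an alternative chosen after seeing the data. PRC2 steps in Tet1-WT called 8 with and without the block, sex differences 5 and 5, and the sex difference of the E14.5 step 1 and 1. Over the steps there were 18 calls of other Polycomb genes with the block, and 17 calls of cell division genes with it against 19 without. The block gave 1 call in the MF1 fit. The precision is limited by 2 pools a group, and the lowest PRC2 count was 208, of reads without molecular identifiers.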
